A study of Homo sapiens with 12 samples.

Results

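OTOGL, PTPRQ, LIN7A, ACSS3 and PPFIA2 are 5 protein-coding genes that follow each other on the long arm of chromosome 12, and they were chosen by the levels of their RNA in these libraries, which were higher after EZH2 inhibition. They are 5 of the 35347 genes for which reads could be summed, and all 5 were among the 15024 genes with enough reads to be tested. The values of the 4 groups chose them, so their levels and changes are given as a description, without a test. The RNA came from MKL-1 cells, an established line grown from a Merkel cell carcinoma and positive for Merkel cell polyomavirus, sequenced as 12 polyA-selected libraries in 4 groups of 3. Cells received 3 µM EPZ011989, an inhibitor of the histone methyltransferase EZH2, or vehicle alone, for 6 or 12 days, and every group, treated or not, was in 1% ethanol and was split and given new medium every 3 days. All values come from this 1 line, and the labels do not say whether the libraries of a group came from separate cultures, so spreads and p-values measure only the variation between these libraries, which may be technical.

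EZH2 is the enzyme of Polycomb repressive complex 2 that methylates lysine 27 of histone H3, a mark that keeps many developmental genes silent in cells that do not use them. The 5 genes serve unlike ends. OTOGL (otogelin-like) encodes an extracellular protein of the acellular membranes over the inner ear epithelium, and PTPRQ a receptor-type phosphatase of the hair cell bundle, and variants of either cause hearing loss. LIN7A is a PDZ scaffold of synapses and cell junctions, PPFIA2 is liprin-alpha-2, a scaffold of the presynaptic active zone, and ACSS3 is a mitochondrial acyl-CoA synthetase that uses propionate. Merkel cells, the touch receptors of the skin, share transcription factors such as ATOH1 and POU4F3 with hair cells.

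In GENCODE release 29 on GRCh38 the 5 genes span 1.66 Mb. OTOGL (ENSG00000165899) runs from 80099537 to 80380879 on the plus strand of chromosome 12, and PTPRQ (ENSG00000139304) from 80402178 to 80680271, also on the plus strand, 21298 bases further on. LIN7A (ENSG00000111052) lies on the minus strand from 80792520 to 80937925, after a gap of 112248 bases that holds MYF6 and MYF5, a pair of muscle transcription factor genes. ACSS3 (ENSG00000111058) runs on the plus strand from 80936414 to 81261205 and overlaps the start of LIN7A by 1512 bases. PPFIA2 (ENSG00000139220) lies on the minus strand from 81257975 to 81759553 and overlaps the end of ACSS3 by 3231 bases. MYF6 had 1 estimated read over all 12 libraries and MYF5 had 0, a count that allows at most 0.193 CPM (reads per 1000000 reads) in the shallowest library. The 5 genes are therefore consecutive among the genes tested and not in the annotation.

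RefSeq promoter windows of 300 bases, 250 before a start and 50 after it (GRCh38.p14), were matched for 3 of the 5 genes: OTOGL, LIN7A and PPFIA2. The windows below are those nearest to the main starts that carried reads, 5′ to 3′ on the strand of the gene, with CG dinucleotides in capitals, because the density of CG differs widely between these genes although all were higher at day 12. They lie at chr12:80099287-80099586 (plus) and chr12:80208964-80209263 (plus) for the upstream and the internal start of OTOGL, at chr12:80937885-80938184 (minus) for LIN7A, and at chr12:81759301-81759600 (minus) and chr12:81598322-81598621 (minus) for the upstream and an internal start of PPFIA2.
OTOGL upstream: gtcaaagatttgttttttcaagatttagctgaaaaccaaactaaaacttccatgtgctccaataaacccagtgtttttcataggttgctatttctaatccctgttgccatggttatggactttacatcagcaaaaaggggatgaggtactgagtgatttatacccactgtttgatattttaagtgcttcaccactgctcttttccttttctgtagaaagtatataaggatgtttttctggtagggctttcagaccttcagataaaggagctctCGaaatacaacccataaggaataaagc
OTOGL internal: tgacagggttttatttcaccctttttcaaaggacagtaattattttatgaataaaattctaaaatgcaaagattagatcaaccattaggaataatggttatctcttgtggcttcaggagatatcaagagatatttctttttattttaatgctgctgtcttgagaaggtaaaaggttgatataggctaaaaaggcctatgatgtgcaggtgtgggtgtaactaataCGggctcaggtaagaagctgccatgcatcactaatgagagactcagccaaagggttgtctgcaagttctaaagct
LIN7A: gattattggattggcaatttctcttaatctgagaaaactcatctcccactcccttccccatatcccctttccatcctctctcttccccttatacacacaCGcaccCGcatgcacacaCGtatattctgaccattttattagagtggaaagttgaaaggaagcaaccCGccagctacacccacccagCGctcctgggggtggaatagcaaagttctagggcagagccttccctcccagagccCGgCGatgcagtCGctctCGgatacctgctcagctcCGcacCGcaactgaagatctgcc
PPFIA2 upstream: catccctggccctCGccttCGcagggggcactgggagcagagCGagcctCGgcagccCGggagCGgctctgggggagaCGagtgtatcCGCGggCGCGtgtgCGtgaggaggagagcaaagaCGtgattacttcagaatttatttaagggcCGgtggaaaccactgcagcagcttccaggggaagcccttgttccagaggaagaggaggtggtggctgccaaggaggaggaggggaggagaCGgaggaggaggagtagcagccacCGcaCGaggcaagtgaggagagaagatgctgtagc
PPFIA2 internal: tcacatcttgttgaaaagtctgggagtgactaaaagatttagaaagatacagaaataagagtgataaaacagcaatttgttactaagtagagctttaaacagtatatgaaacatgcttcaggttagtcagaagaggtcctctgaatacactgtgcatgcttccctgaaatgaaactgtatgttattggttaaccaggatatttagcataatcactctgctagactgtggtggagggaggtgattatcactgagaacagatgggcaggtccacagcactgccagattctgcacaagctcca
The windows of OTOGL hold 1 CG each, with 37% and 36.7% G or C. That of LIN7A holds 11 CG, and the overlapping RefSeq window of its other start, from 80937658 to 80937957, holds 19. The upstream window of PPFIA2 holds 17 CG at 62.7% G or C, and the internal window holds none at 40% G or C, as does the RefSeq window from 81369320 to 81369619, which is not printed. The OTOGL transcript read from the internal start begins at 80209453 in GENCODE, past the end of the RefSeq window at 80209263. Over all 34941 RefSeq promoter windows the median is 14 CG and 58.7% G or C, and 11.01% of windows hold 1 CG or none. These counts describe the letters of the windows and nothing that binds there.

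Each library held between 15994997 and 20866370 estimated reads, and CPM are taken over library totals scaled by TMM, a trimmed mean of gene ratios. All 11 Merkel cell markers were tested, and they summed to 3852 to 3923 CPM in vehicle and 3265 to 3366 in treated libraries at day 6, which did not overlap, and to 3472 to 3775 and 3356 to 3543 at day 12. The summed level of 9 inner ear hair cell markers was 3642 to 4338 CPM in the vehicle libraries of both days and the treated libraries of day 6, and 6977 to 7169 CPM in the treated libraries of day 12. Markers of other cells were low: keratinocyte genes summed to 5.41 to 11.8 CPM with KRT1 at 0, and leukocyte genes to 0.168 to 1.86. Fibroblast genes summed to 14.6 to 18.8 CPM in vehicle and 21.2 to 28.6 in treated libraries at day 6, and to 9.66 to 14.1 and 18.1 to 20.9 at day 12. Endothelial genes summed to 0.423 to 1.30 and 0.577 to 1.54 at day 6, and to 0.322 to 0.729 and 1.79 to 2.61 at day 12. The 6 muscle genes taken because of MYF5 and MYF6, 2 of them tested, summed to 5.91 to 7.13 CPM in vehicle and 11.9 to 14.4 in treated libraries at day 6, and to 8.05 to 10.1 and 18.6 to 26.3 at day 12. The part of the Merkel cell, hair cell, fibroblast, endothelial and muscle lists in the levels below was not tested. In bulk RNA, fewer cells of a type and less RNA per cell cannot be told apart.

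Higher levels of all 5 genes together were seen at day 12 only, with LIN7A and PPFIA2 already higher at day 6. ACSS3 was also higher at day 6 in CPM. It overlapped in the authors' table, and its day 6 level is uncertain for the reason given with its transcripts below. At day 12 all 3 treated libraries lay above all 3 vehicle libraries for each of the 5 genes, a pattern that 35.5% of all tested genes shared. At day 6 the same held for LIN7A, ACSS3 and PPFIA2 (24.0% of all tested genes), while PTPRQ overlapped between groups and OTOGL was lower in all 3 treated libraries (27.1% of all tested genes). From day 6 to day 12 of treatment 4 of the 5 did not overlap, each higher at day 12, against 33.4% of all tested genes, and the exception was ACSS3. The median fitted change of the 5 genes was 1.02 (log2) at day 6 and 2.91 at day 12, beside -0.02 and 0.02 over all tested genes. In vehicle, day 12 against day 6, it was 0.01, beside 0.00. Since the choice of the genes used these contrasts, nothing is read from the counts.

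**Figure D1:**
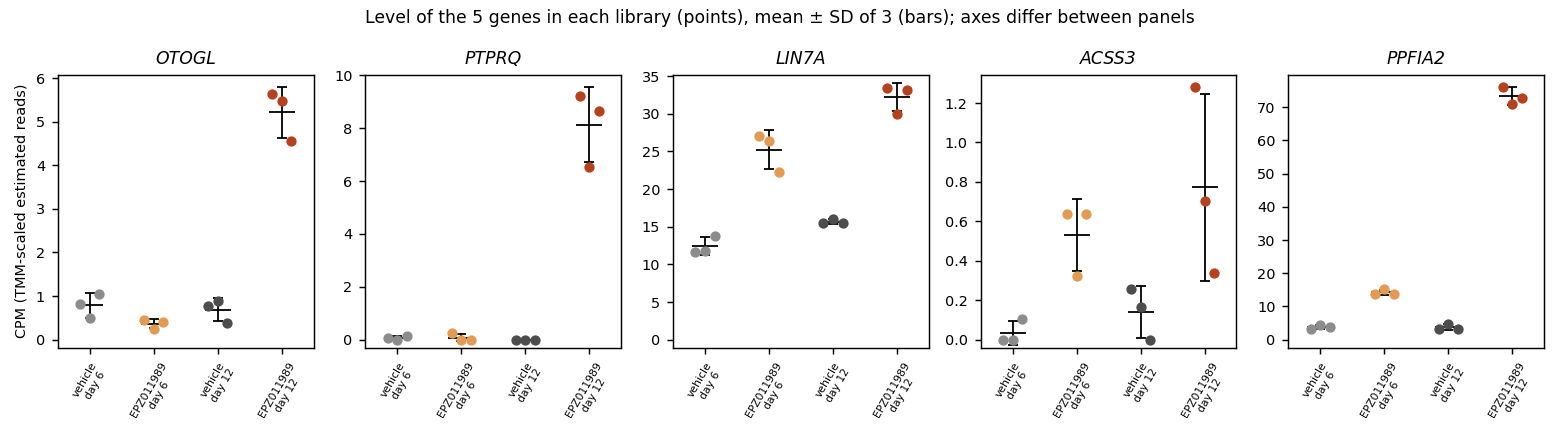
Level of each gene in CPM (vertical axis, linear, scaled to each gene) in the 4 groups. Points are libraries, the horizontal mark is the mean and the bars the SD of 3 libraries. The treated day 12 points stand above the other groups for OTOGL, PTPRQ, LIN7A and PPFIA2, and overlap with treated day 6 for ACSS3. LIN7A, PPFIA2 and, from few reads, ACSS3 were already higher in treated libraries at day 6.

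OTOGL, the first gene of the row, was at a low level in 3 of the groups. It had 15, 9 and 20 reads in the vehicle libraries of day 6 and 9, 4 and 7 in the treated ones, or 0.828, 0.489 and 1.06 CPM against 0.441, 0.256 and 0.404. The treated libraries were thus lower without overlap in CPM, by a narrow margin and with shared values in raw reads. At day 12 the vehicle libraries had 0.772, 0.897 and 0.387 CPM and the treated libraries 5.63, 5.48 and 4.55 CPM, from 110, 109 and 81 reads. Every treated day 12 library was several times above every other library. The fitted log2 change was -1.08 ± 0.43 (SE) at day 6 and 2.91 ± 0.38 at day 12. As a ratio of the pooled reads of 3 libraries, each over the pooled scaled library totals, the day 12 difference was 7.54, with a 95% counting interval of 5.28 to 11.1, and within treated cells day 12 was 13.98 times day 6 (8.89 to 23.2).

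PTPRQ, the hair bundle phosphatase next to OTOGL, went from almost no reads to a clear level. It had 1, 0 and 3 reads in vehicle and 5, 0 and 0 in treated libraries at day 6, and no read in any vehicle library of day 12. The treated libraries of day 12 had 180, 130 and 154 reads, or 9.21, 6.53 and 8.65 CPM (8.13 ± 1.41, SD, n = 3). Detection was therefore confined, apart from a handful of reads, to treated cells at day 12 at this depth. Against a floor of 3 reads in each vehicle library the day 12 difference in mean CPM was at least 44.0-fold. At day 6 the ratio of pooled reads was 1.30 with an interval of 0.280 to 6.55, too wide to give a direction, and within treated cells day 12 was 86.5 times day 6 (36.8 to 268). All 5 treated reads of day 6 came from replicate 1. Without it the fitted log2 change of day 6 went from 0.32 to -3.48 and that between treated days from 6.37 to 10.17, both against or from libraries with no read and so no bounds. Without vehicle day 6 replicate 3 the day 6 change was 1.54, and without vehicle day 6 replicate 2 it was -0.20.

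In the authors' normalized gene table PTPRQ reads 34.4, 0 and 0 in the treated libraries of day 6 and 103, 83.3 and 147 in those of day 12. The library with 34.4 is treated replicate 1, whose 5 reads include 4 assigned to a retained-intron transcript of 829 bases. A read of a short transcript weighs more in TPM, which divides reads by effective transcript length before scaling each library to the same sum. In TPM that library read 0.729, beside 2.32, 1.87 and 3.29 at day 12.

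LIN7A, the PDZ scaffold, showed a difference of similar size at both days. It had 11.7, 11.8 and 13.8 CPM in vehicle and 27.1, 26.4 and 22.2 CPM in treated libraries at day 6. At day 12 it had 15.4, 16.1 and 15.5 CPM in vehicle and 33.4, 30.0 and 33.1 CPM in treated libraries. In CPM the treated and vehicle groups stood well apart at each day, with vehicle itself higher at day 12 than at day 6 in all 3 libraries. In the authors' table the vehicle values of the days overlapped, with 314, 201 and 206 at day 6 and 211, 246 and 369 at day 12. The ratio was 2.03 (1.85 to 2.23) at day 6 and 2.05 (1.88 to 2.23) at day 12. On the log2 scale the changes were 1.02 ± 0.10 and 1.03 ± 0.10, and the difference between them was 0.01 ± 0.14. They were 0.87 and 1.13, with a difference of 0.25, on the log2(value + 1) scale of the authors' table. The gain from day 6 to day 12 was 0.35 ± 0.10 in treated and 0.34 ± 0.10 in vehicle cells.

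ACSS3, the mitochondrial acyl-CoA synthetase whose start overlaps that of LIN7A, had the fewest reads of the 5. It had 0, 0 and 2 reads in vehicle and 13, 5 and 11 in treated libraries at day 6, and 4, 3 and 0 in vehicle and 25, 14 and 6 in treated libraries at day 12. The groups did not overlap at either day, and the treated libraries of the 2 days did overlap. The ratio was 15.1 at day 6, with an interval of 3.81 to 130, and 5.49 at day 12 (2.46 to 14.4). Within treated cells day 12 was 1.45 times day 6 (0.887 to 2.39), an interval that includes no difference. Vehicle day 6 replicate 3 held both vehicle reads of day 6, and without it the fitted log2 change of day 6 went from 3.66 to 6.28, against libraries with no read. Without vehicle day 12 replicate 1 the day 12 change went from 2.39 to 3.03, and without treated day 12 replicate 1 the change between treated days went from 0.53 to -0.03. In the authors' table ACSS3 overlapped between the groups of day 6. It had 0, 0 and 6.32 there in vehicle and 11.8, 3.05 and 14.5 in treated libraries. The treated libraries of day 12 had 17.7, 13.7 and 16.3, closer together than their reads.

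PPFIA2, the active zone scaffold at the far end, was higher at day 6 and higher again at day 12. It had 3.20, 4.29 and 3.86 CPM in vehicle and 13.8, 15.2 and 13.7 CPM in treated libraries at day 6. At day 12 the values were 3.28, 4.88 and 3.22 CPM in vehicle and 76.1, 70.9 and 72.8 CPM in treated libraries, from 1488, 1410 and 1295 reads. Vehicle stayed level between the days, and each treated group stood clear of all others. The ratio was 3.74 (3.21 to 4.38) at day 6 and 19.1 (16.5 to 22.2) at day 12. The fitted log2 changes were 1.91 ± 0.14 and 4.26 ± 0.14, and the day 12 effect exceeded the day 6 effect by 2.35 ± 0.20. On the log2(value + 1) scale of the authors' table the day 12 change was 3.65.

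Levels of different genes were compared in TPM, which is per length. In vehicle at day 6 LIN7A led with 5.03 ± 1.35 TPM (SD, n = 3), followed by PPFIA2 with 2.35 ± 0.529, OTOGL with 0.214 ± 0.10, ACSS3 with 0.0153 ± 0.0265 and PTPRQ with 0.0146 ± 0.0166. The first 3 did not overlap with their neighbours in this order, and ACSS3 and PTPRQ could not be ranked. In vehicle at day 12 the highest PPFIA2 library (4.40) reached the lowest LIN7A library (4.38), and PTPRQ was at 0. After 6 days of treatment LIN7A (9.30 ± 1.17) still stood above PPFIA2 (6.50 ± 0.621), and the ranges of PTPRQ, ACSS3 and OTOGL overlapped. After 12 days PPFIA2 led with 34.0 ± 2.71, followed by LIN7A with 13.4 ± 2.11, PTPRQ with 2.49 ± 0.723, OTOGL with 1.21 ± 0.0971 and ACSS3 with 0.260 ± 0.139. No neighbours in that last order overlapped.

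The timing can be put in 1 value per gene: the treated minus vehicle difference at day 6 as a percentage of that at day 12, from mean CPM, with the SD over the 3 treated day 6 libraries. It was 78.5 ± 28.8% for ACSS3 and 77.6 ± 15.9% for LIN7A, which do not differ beyond their spread. It was 15.04 ± 1.21% for PPFIA2, 0.128 ± 1.74% for PTPRQ and -9.35 ± 2.15% for OTOGL. These SDs leave out the spread of the vehicle and day 12 libraries and so understate the uncertainty. For OTOGL the SD of day 6 was 0.286 CPM in vehicle and 0.0976 CPM in treated libraries. From the authors' table the values were 70.2% for ACSS3, 61.6% for LIN7A, 13.97% for PPFIA2, 9.69% for PTPRQ and -13.3% for OTOGL. That of PTPRQ rests on treated day 6 replicate 1 alone. Over all 5059 genes called higher at day 12 the median was 17.4%, and the middle 50% of genes lay between -0.714% and 43.2%. LIN7A and ACSS3 thus lay above that middle range, PPFIA2 and PTPRQ inside it and OTOGL below it. The ACSS3 value counts all its transcripts. Of its pooled treated reads of day 6, 83.6% lay on a noncoding transcript that spans the LIN7A start. Without strand, reads there cannot be told from those of LIN7A. The ACSS3 coding transcript had 4.71 pooled treated reads at day 6 and 30.5 at day 12. By library these were 0, 4.71 and 0, and 18.4, 10.95 and 1.14. Its share of the gene differed widely between libraries, so no separate timing is read from it. In chromosome order the values are lowest at OTOGL, highest at LIN7A and ACSS3 and lower again at PPFIA2. Without treated day 12 replicate 1 the value for ACSS3 is 131%, since that library alone held 25 of its 45 treated day 12 reads. In the authors' table the treated day 12 values of ACSS3 were closer together, at 17.7, 13.7 and 16.3. The reason for this disagreement was not tested.

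**Figure D2:**
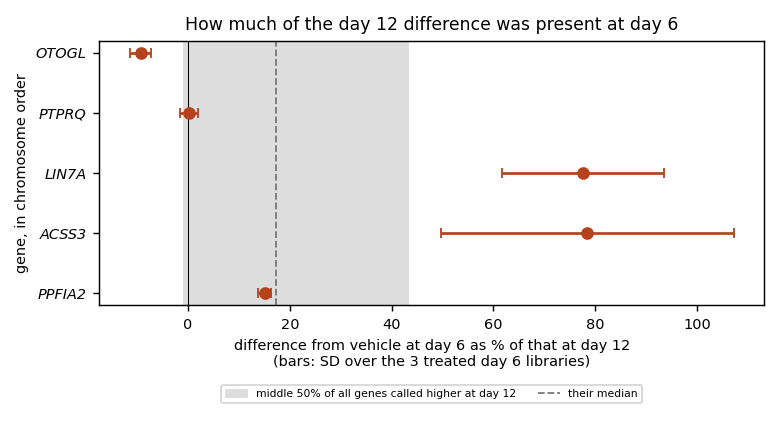
Treated minus vehicle difference at day 6 as a percentage of the day 12 difference (horizontal axis) for each gene, in chromosome order from the top. Bars are the SD over the 3 treated day 6 libraries, the grey band is the middle 50% of the 5059 genes called higher at day 12 and the dashed line their median of 17.4%. LIN7A and ACSS3 lie near 78%, the other 3 genes at or under 15.04%. Values are from mean CPM, and most treated day 6 reads of ACSS3 lay on a noncoding transcript that spans the LIN7A start.

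How the reads of a gene were shared between its transcripts played no part in choosing the genes. For PPFIA2, 28 transcripts are listed, and those of its most upstream group of starts (81758647 to 81759553) held 80.1 ± 5.71% of its reads in vehicle and 90.7 ± 3.60% in treated libraries at day 6, and 85.1 ± 12.4% and 93.7 ± 1.17% at day 12. The treated libraries lay above all vehicle libraries at day 6 and overlapped with them at day 12. An exact two-sided permutation test, added after the data were seen, gave p = 0.1 at day 6, the smallest that 3 libraries against 3 allow, and p = 0.4 at day 12, or 0.2 and 0.4 after Benjamini-Hochberg adjustment over the 2 tests. Within that group, the transcript starting at 81759330, inside the CG-rich window, held 48.3% of the pooled vehicle reads and 54% of the treated reads at day 6, and 30.9% and 55.9% at day 12. In vehicle it had 9.11, 43.25 and 49.1 of 58, 79 and 73 reads at day 6. At day 12 vehicle had 17.2, 40.7 and 0 of 51, 87 and 50. Its share in vehicle was thus not repeatable, and no shift is read from the pooled values. Other transcripts of the group start at 81758647 to 81758693, outside that window. The starts at 81598256 to 81598371, next to or in the window without CG, held 3.75% of the pooled reads of treated cells at day 12.

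For OTOGL, the internal start at 80209453 held 86.2% of the pooled vehicle reads of day 6, all 34 vehicle reads of day 12 and 19 of the 20 treated reads of day 6. In treated cells at day 12 the upstream start at 80099537 held 61.4% and the internal start 38.6% of 300 reads. The division differed between the 3 libraries, where the upstream start had 32.4, 109 and 42.8 reads and the internal start 77.6, 0 and 38.2. The gene totals of these libraries were close, so the split between the overlapping transcripts was far less repeatable than the total. Upstream reads were nonetheless present in all 3 treated day 12 libraries, against 3.83 reads in the vehicle libraries and 1 in the treated libraries of day 6, and none in the vehicle libraries of day 12.

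For PTPRQ, a coding transcript of 8261 bases starting at 80444281 held 136, 129 and 150 of the treated day 12 reads, 89.3% of the total. LIN7A was read almost wholly from its longest transcript of 6112 bases, with 95.7% to 96.7% of the reads in each group. For ACSS3, a short noncoding transcript from 80936414 to 80940246, which spans the start of LIN7A on the opposite strand, held 24 of the 29 treated reads of day 6, or 83.6%. At day 12 it held 15.02 reads, or 33.0%, and a coding transcript of 8391 bases starting at 81077211 held 30.5 reads, or 67.0%. The coding transcript thus had 0, 4.71 and 0 reads in the treated libraries of day 6 and 18.4, 10.9 and 1.14 in those of day 12. No source used here says whether the counting used strand, and without strand, reads of the overlapping ends of LIN7A and ACSS3 cannot be told apart, so the ACSS3 level of day 6 is uncertain. The same holds for the ends of ACSS3 and PPFIA2.

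**Figure D3:**
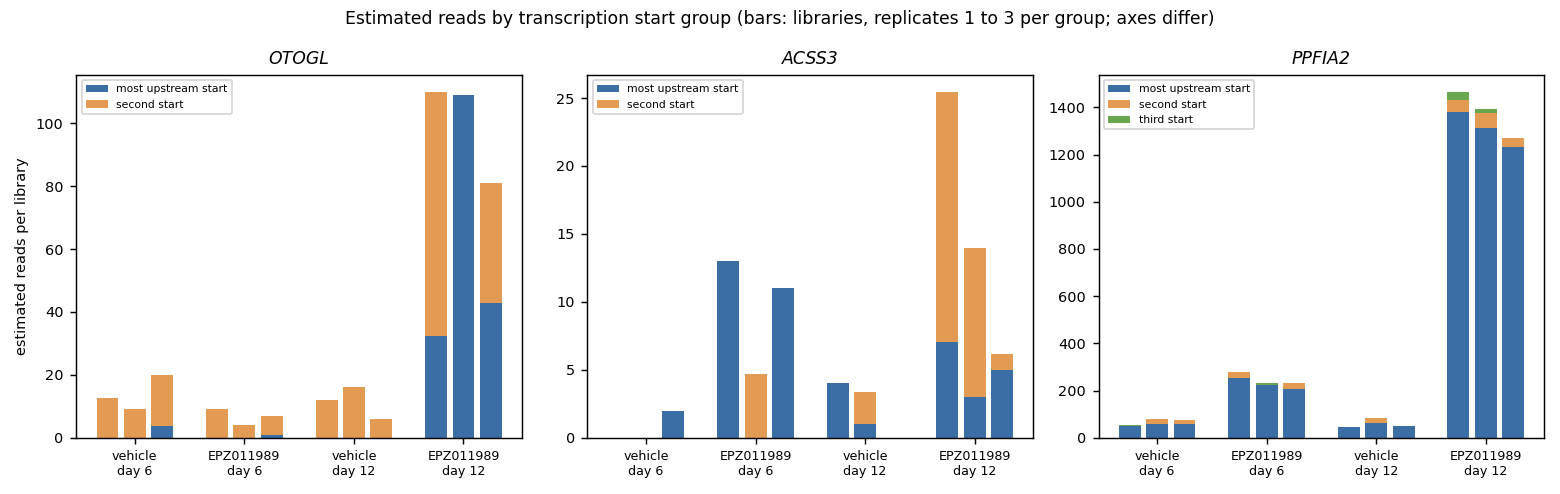
Estimated reads per library (vertical axis, linear, scaled to each gene) for OTOGL, ACSS3 and PPFIA2, split by the position at which the transcripts start, ordered from the most upstream. Each bar is 1 library. Reads from the upstream OTOGL start stand out in the treated day 12 libraries. The downstream ACSS3 start had 18.4, 10.95 and 1.14 reads in the treated day 12 libraries. PPFIA2 reads come mostly from the most upstream group of starts throughout.

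The genes on either side were taken by position alone. Within 3 Mb of the 5 genes 63 other genes are annotated, 26 have transcripts in the files, 9 of these are protein coding and 7 were tested. The antisense and long noncoding genes of the region were not analysed here. By edgeR's quasi-likelihood test, none of the 7 was called higher at day 6 (17.1% of all tested genes were) and 1 was called lower (17.0%). At day 12, 2 were called higher (33.7%) and 3 lower (33.2%). Between treated day 12 and day 6, 2 were again higher and 3 lower (27.8% and 29.8% of all tested genes), as for the difference between the treatment effects (22.6% and 25.1%). In vehicle, day 12 against day 6, 2 were higher (5.96%) and none lower (7.15%), and 0 were called without vehicle day 6 replicate 2 or without replicate 3 of that group.

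SYT1, the calcium sensor of synaptic vesicle release and upstream of OTOGL, differed between the days in direction. It had 23.9, 23.5 and 25.5 CPM in vehicle and 17.8, 19.4 and 18.1 in treated libraries at day 6, a fall of 0.40 ± 0.10 on the log2 scale (adjusted p = 0.00511). At day 12 it had 25.2, 26.2 and 23.9 CPM in vehicle and 117, 89.1 and 99.2 in treated libraries, a rise of 2.02 ± 0.09 (adjusted p = 8.77e-11). SYT1 was thus lower and then higher in every treated library, as OTOGL was.

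TMTC2, an endoplasmic reticulum protein gene and the tested neighbour farthest from PPFIA2 on its side, rose at day 12 by 0.91 ± 0.09 (adjusted p = 2.78e-07). The genes closest to the row fell at day 12: PPP1R12A, a subunit of myosin phosphatase, went from 183 ± 12.1 to 123.1 ± 3.38 CPM (log2 change -0.57, adjusted p = 1.11e-06) on the OTOGL side. PAWR, a pro-apoptotic regulator next to it, had a log2 change of -0.87 (adjusted p = 3.12e-08). On the PPFIA2 side CCDC59 went from 50.6 ± 6.07 to 24.9 ± 1.68 CPM (log2 change -1.02, adjusted p = 1.48e-07). METTL25 (log2 change -0.16, adjusted p = 0.396) and NAV3 (0.33, adjusted p = 0.718) did not pass the test. The nearest tested gene on each side was thus lower at day 12, with SYT1 and TMTC2 higher beyond them. Over all tested genes 33.2% were called lower and 33.7% higher at day 12, so no border is read from this order.

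**Figure D4:**
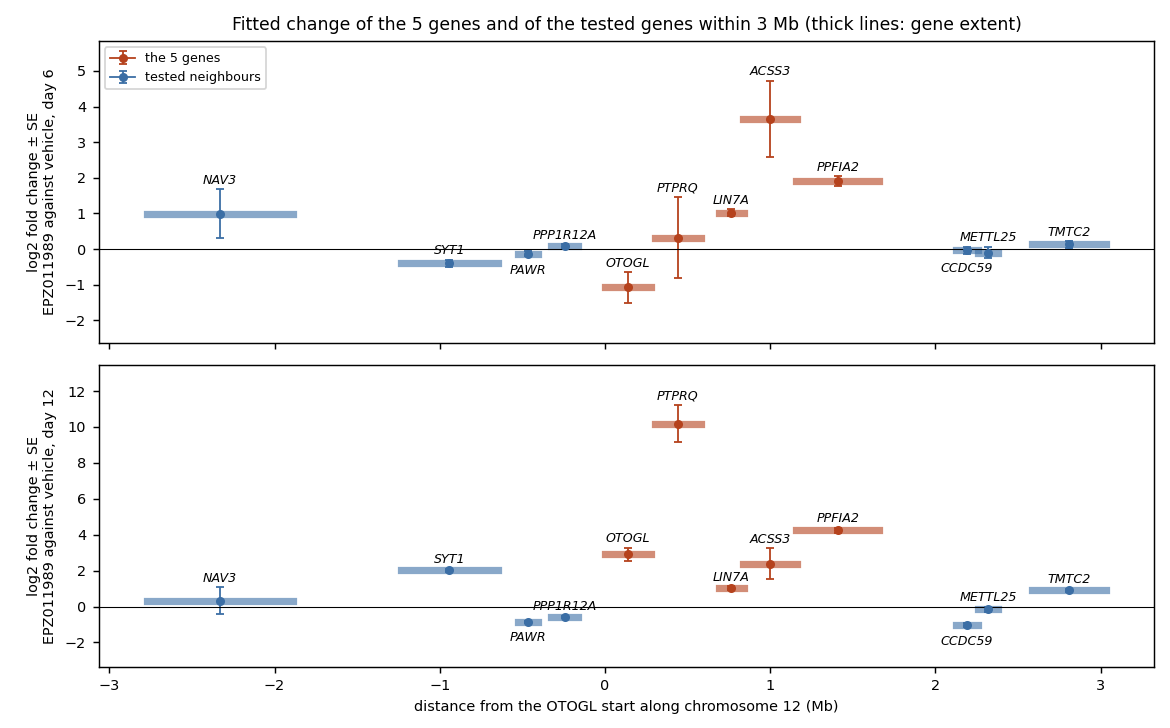
Fitted log2 fold change ± SE, EPZ011989 against vehicle (vertical axis), at day 6 (upper panel) and day 12 (lower panel), against the distance from the start of OTOGL in Mb. Thick lines show the extent of each gene, red the 5 genes and blue the 7 tested neighbours. The day 12 estimate of PTPRQ is from a fit to vehicle libraries with no read and is no bound, and PAWR, PPP1R12A and CCDC59 lie below 0 at day 12.

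Runs of neighbouring genes with higher RNA were counted over the genome in the same way. A run here is at least 3 consecutive tested genes, each called higher at least 2-fold by edgeR. At day 12 there were 124 such runs, of which 12 had 5 or more genes and the longest had 6. At day 6 there were 19 such runs, 1 of them with 5 genes or more. The 5 genes were themselves chosen as neighbours with higher RNA, so their own place among these runs was fixed by the choice and is not counted as a result.

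The relatives of the 5 genes elsewhere in the genome were counted by the same edgeR calls. Of 25 family members, 19 were tested, 10 rose and none fell at day 6 (17.1% and 17.0% of all tested genes), and 12 rose and none fell at day 12 (33.7% and 33.2%), with a median log2 change of 1.04 at day 12 beside 0.02 for all genes. PPFIA4 (liprin-alpha-4) rose from 31.2 ± 2.11 to 238 ± 7.66 CPM at day 12, a log2 change of 2.93 ± 0.07 (edgeR adjusted p = 2.53e-13). PTPRJ, a receptor phosphatase related to PTPRQ, rose by 1.60 (adjusted p = 8.70e-12) and PPFIA3 (liprin-alpha-3) by 1.26 (adjusted p = 5.10e-09). The closest relatives of LIN7A, which were named after their values were seen, did not pass the test at day 12: LIN7B had a log2 change of 0.04 ± 0.21 and LIN7C of 0.05 ± 0.07. PPFIA1, the widely expressed liprin-alpha-1, named in the same way, had 0.04 ± 0.06.

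Among 31 known partners of LIN7 and liprin-alpha at synapses and junctions, 30 were tested, 8 rose and 4 fell at day 6 (17.1% and 17.0% of all tested genes), and 16 rose and 5 fell at day 12 (33.7% and 33.2%), with a median of 0.38 at day 12. PTPRS, a synaptic receptor phosphatase that binds liprin-alpha, rose by 1.52 (adjusted p = 2.45e-12) and DLG4, the postsynaptic scaffold PSD-95, by 1.16 (adjusted p = 4.22e-09). GIT1, a signalling scaffold that binds liprin-alpha, fell by 1.02 (adjusted p = 4.09e-09).

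Of 15 genes of the hair bundle base and stereocilium, 12 were tested, 4 rose and none fell at day 6 (17.1% and 17.0% of all tested genes), and 8 rose and 2 fell at day 12 (33.7% and 33.2%), with a median of 1.15. MYO6, a myosin that moves towards the base of stereocilia, rose from 368 ± 17.6 to 1782 ± 61.3 CPM (log2 change 2.27 ± 0.04, adjusted p = 2.85e-14). GRXCR1, a stereocilium protein, rose from 0.702 ± 0.139 to 52.6 ± 3.55 CPM (6.23 ± 0.21, adjusted p = 3.01e-12) and TRIOBP, an actin bundler of the stereocilium rootlet, by 1.94 (adjusted p = 4.86e-12).

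Of 11 genes of acetate and propionate use, 8 were tested, 1 rose and 5 fell at day 6 (17.1% and 17.0% of all tested genes), and 2 rose and 5 fell at day 12 (33.7% and 33.2%), with a median of -0.28. ACSS2, the cytosolic relative of ACSS3, rose by 1.54 (adjusted p = 1.68e-07), while the thiolase genes ACAT2 and ACAT1 fell by 1.72 (adjusted p = 7.07e-12) and 0.74 (adjusted p = 1.80e-07).

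The pattern of the 5 genes together was compared with that of every other tested gene outside the window, as Pearson's r over the 12 libraries between log2(CPM + 0.5) and the mean of the 5 standardized profiles. The most alike were PAK3 (r = 0.993), a neuronal kinase, IL18R1 (0.993), a cytokine receptor subunit, RMND5A (0.991), a ubiquitin ligase subunit, SPTB (0.990), the erythroid beta-spectrin, and C10orf90 (0.990). These values describe likeness over 12 libraries that share the 4 groups. Each of the 5 genes was also ranked by its r to the mean of the other 4 among 15020 genes. PPFIA2 stood at rank 261 (r = 0.963), PTPRQ at 1627 (0.898), LIN7A at 2382 (0.853), OTOGL at 3285 (0.773) and ACSS3 at 3582 (0.763). PPFIA2 had the highest r of the 5. The same 4 groups chose the genes, and OTOGL, PTPRQ and ACSS3 had few reads outside treated day 12. Nothing further is read from these ranks.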

How the data were processed

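PolyA-selected RNA of MKL-1 cells was sequenced as 12 libraries, whose titles give the groups and replicate numbers. Per the submitters' processing notes, the authors used FastQC, Salmon 1.2.0, DESeq2 and the build hg38. The deposited files hold, per library, Salmon's estimated counts (expected counts of reads) and TPM per transcript, the authors' values. A further deposited table holds a normalized gene signal by the authors, and no source used here states its normalization. The quoted lengths in the deposited files are bases.

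Identifiers tied 168219 of 179883 transcripts (93.5%) to genes of GENCODE release 29. Summing their estimated reads by gene, then rounding, gave 35347 genes, and transcripts without a matched gene (3.08 to 3.58% of reads) were left out. Transcripts whose starts lie within 1000 bases were taken as 1 start. Promoter windows are RefSeq's for GRCh38.p14.

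Genes were kept by filterByExpr, scaled by TMM and put in 1 fit of the 12 libraries with the two-sided quasi-likelihood test of edgeR 4.0.16 (R 4.3.3), calling Benjamini-Hochberg adjusted p under 0.05 over all 15024 tested genes. Treatment was contrasted with vehicle at each day, day 12 with day 6 within treated and within vehicle cells, and the effects of the 2 days with each other. Standard errors are the log2 change over the root of F. The test was tried on simulated counts. Ratios of pooled reads over pooled TMM-scaled library totals, which need not equal ratios of mean CPM, carry exact 95% intervals that cover counting error only, as does the floor of 3 reads per library. Pairs of libraries within a group differed by more than sampling noise (chi-square per degree of freedom 4.21 to 17.0).

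Named genes are the 5 genes, MYF5 and MYF6, up to 6 nearest protein-coding neighbours on each side, other neighbours called at least 2-fold, up to 3 genes of each related list with the smallest p at day 12, and the 5 most alike genes. The 5 genes and all lists were chosen with earlier results of these data known. Alternatives were DESeq2 1.42.0 size factors and test, no TMM, no filter, fewer libraries, a replicate block, limma 3.58.1 on log2(authors' value + 1 or 5), a fold limit and other windows.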

Additional observations from a re-analysis of the deposited data

Results flagged for a closer look

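The treatment effect differed between the days for 5 of the 7 tested neighbours, by the interaction term of edgeR's quasi-likelihood fit (22.6% of all tested genes were called higher and 25.1% lower by it). For SYT1 the day 12 effect exceeded the day 6 effect by 2.42 on the log2 scale (adjusted p = 4.88e-09), with all 3 treated libraries below vehicle at day 6 and above it at day 12. For TMTC2 it was larger by 0.778 (adjusted p = 0.000115). It was lower by a log2 difference of -0.739 for PAWR (adjusted p = 1.68e-05), -0.655 for PPP1R12A (adjusted p = 2.43e-05) and -0.985 for CCDC59 (adjusted p = 1.99e-05). PPP1R12A and CCDC59 were also higher in vehicle at day 12 than at day 6, by 0.31 (adjusted p = 0.0110) and 0.33 (adjusted p = 0.0306).

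For OTOGL the day 12 effect exceeded the day 6 effect by 3.99 on the log2 scale. It is listed because in CPM all treated libraries lay below vehicle at day 6 and above it at day 12. The difference was not tested, since OTOGL was chosen on these contrasts. The day 6 side rests on 20 treated and 44 vehicle reads, a ratio of 0.473 with a counting interval of 0.264 to 0.819.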

How the results depend on the processing

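Of 330 recomputed counts and medians 290 were labelled the same, as were 65 of 75 recomputed timing values. Counts were compared by their total alone, without direction, and medians and timing values by direction and size. The comparison of the vehicle groups, 1970 called genes, was the least stable: it gave 9 genes with only its own libraries, 142 and 137 with limma on the authors' table (pseudocount 1 and 5), 85 with a 2-fold limit and 184 to 4183 when 1 library was left out (184 without vehicle day 6 replicate 2, 186 without vehicle day 6 replicate 3, 529, 470 and 4183 without vehicle day 12 replicate 1, 2 and 3). Its 2 called neighbours became 0 with only its own libraries, 0 with limma under both pseudocounts, 0 at 2-fold, and 0 to 3 with 1 library left out. The median of the 5 genes there, 0.01, turned to -0.08 without vehicle day 6 replicate 1 and -0.22 without vehicle day 12 replicate 2, in a range of -0.22 to 0.13.

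With only the libraries of the contrast the median of the 5 genes was 1.49 at day 6 (2 genes passed the filter) and 3.58 at day 12 (4 genes), and leaving out 1 library gave 0.97 to 1.54 at day 6 (1.54 without vehicle day 6 replicate 3). That setting could not be run for the difference between the days, which needs every group. The neighbour called at day 6 became 2 with limma under both pseudocounts, 0 at 2-fold and 1 to 2 with 1 library left out (2 without vehicle day 6 replicate 1). At day 12 the 5 neighbours became 2 at 2-fold, and those between treated days and for the difference became 1 each. In a window of 5 Mb, chosen after seeing the data, 21 genes were tested and 6 were called at day 6 and 16 at day 12. At 2-fold, 1171 genes were called at day 6, 3832 at day 12, 2460 between treated days and 2256 for the difference.

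The median timing value was 19.4% when treated levels alone were used, and OTOGL then turned to 7.03%. PTPRQ turned to -0.31% without vehicle day 6 replicate 2 and to -0.876% without EPZ011989 day 6 replicate 1, within a range of -0.876% to 0.664% when 1 library is left out, so its sign at day 6 rests on a few reads. From the authors' table PTPRQ stood at 9.69%, LIN7A at 61.6% and OTOGL at -13.3%. Each moved by more than its SD over the treated day 6 libraries, while ACSS3 and PPFIA2 stayed within theirs. Runs of 3 genes or more numbered 504 at day 12 and 152 at day 6 without a fold limit, and 28 and 1 at 4-fold.

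No label says whether replicate numbers pair the libraries. Correlations of same-numbered deviations ran from -0.0723 to 0.155, and those of differently numbered ones from -0.196 to 0.145. With so few libraries per group these values cannot settle the pairing. With the number as a replicate block the pairing fit called 5169, 10047, 8676, 2365 and 7161 genes for day 6, day 12, treated time, vehicle time and the difference, against 5133, 10051, 8658, 1970 and 7166. Depth limits OTOGL, PTPRQ and ACSS3 outside treated day 12, where a library held 20 reads or fewer of each. It limits ACSS3 at treated day 12 as well, with 25, 14 and 6 reads.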
